A study of Homo sapiens with 29 samples.

Results

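The BCL2 family decides whether a cell commits to mitochondrial apoptosis, and the 10 members described here were taken by name from the gene count table, 10 of 28266 genes. They comprise the survival genes BCL2, BCL2L1, BCL2L2, MCL1 and BCL2A1, the BH3-only genes BCL2L11, BBC3 and PMAIP1, and the pore-forming effectors BAX and BAK1. All 10 were in the table and all 10 passed the filter on low counts that left 13136 genes to test.

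The RNA came from IMR90 ER:RAS cells, human lung fibroblasts of an established line in which oncogenic RAS is fused to the ligand-binding part of the estrogen receptor. All groups carried this construct, were transfected with siRNA before treatment and were labelled as day 7. Growing cells received the solvent DMSO and a non-targeting siRNA (DMSO_siNT), senescent cells received 4-hydroxytamoxifen, which activates the fusion, with the non-targeting siRNA (4OHT_siNT), and the knockdown cells received 4-hydroxytamoxifen with siRNA against SMARCA4, the ATPase of the SWI/SNF chromatin remodeller (4OHT_siSMARCA4). Each group held 6 libraries, made with 2 siRNAs that the labels number 2 and 4. The libraries thus represent 1 cell line and 1 inducible oncogene, and growing cells with SMARCA4 knockdown were not analysed here. A library is named below by its siRNA number and its set, for example 4-2V, and what the set endings V and VM stand for was not stated.

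Survival members of the family bind and restrain the effectors, BH3-only proteins bind the survival members or engage the effectors, and BAX and BAK1, once active, open the outer mitochondrial membrane so that cytochrome c leaves and caspases are switched on. The survival proteins differ in which BH3-only partners they hold: the product of PMAIP1, NOXA, binds mainly MCL1 and the BCL2A1 protein, whereas BIM, encoded by BCL2L11, and PUMA, encoded by BBC3, bind all of them. Senescent fibroblasts are known for resisting apoptosis, which is why BH3-mimetic drugs against BCL2, BCL-xL and BCL-w have been used to remove them. Abundance of mRNA is 1 layer of this control, since MCL1 and NOXA proteins are short-lived and BAX and BAK1 are mostly regulated after translation.

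Libraries held 9657309 to 18039313 counts. Levels are counts-per-million (CPM), scaled by the trimmed mean of M-values (TMM), with the SD over libraries. SMARCA4 measured 70.4, 89.9 and 141 CPM (lowest, median and highest) in 4OHT_siSMARCA4 against 275, 297 and 330 CPM in 4OHT_siNT, without overlap. The library DMSO_siNT 4-2V stood apart, with the lowest total and the most genes detected, 17915 against 15993 to 16888 elsewhere, so results that rest on it are given with and without it. All 4OHT_siNT libraries came from VM sets, whereas DMSO_siNT held 3 V and 3 VM libraries and 4OHT_siSMARCA4 held 3 V, 2 VM and 1 of a set not given, so values within the VM sets are given where they differ in call. Of 8 fibroblast markers, COL1A1 and VIM measured at least 1411 and 4107 CPM in every library. COL1A1 still fell from a mean of 7053 CPM in 4OHT_siNT to 2642 CPM in 4OHT_siSMARCA4. Others were not stable either, and DCN fell from a mean of 625 CPM in DMSO_siNT to 17.4 CPM in 4OHT_siNT. The 4 leukocyte and natural killer cell markers summed to at most 0.359 CPM.

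Going from growing to senescent cells, the survival arm of the family was re-weighted. MCL1 and BCL2A1 rose strongly, BCL2L1 and BCL2L2 rose slightly, and BCL2 fell. Among the death genes PMAIP1 and BAK1 rose, while BBC3, BCL2L11 and BAX did not pass the test. In all, 7 of the 10 members were called in 4OHT_siNT against DMSO_siNT at an adjusted p under 0.05, 6 higher and 1 lower, beside 52.8% of all genes tested, 23.9% higher and 28.9% lower. The same 7 members did not overlap between the groups, against 33.8% of all genes tested. The median log2 fold change was 0.40 over the members and -0.05 over all genes. At this background a call by itself does not set a member apart. In bulk RNA, a change in level per cell and a change in the share of cells that express a gene cannot be told apart.

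**Figure D1:**
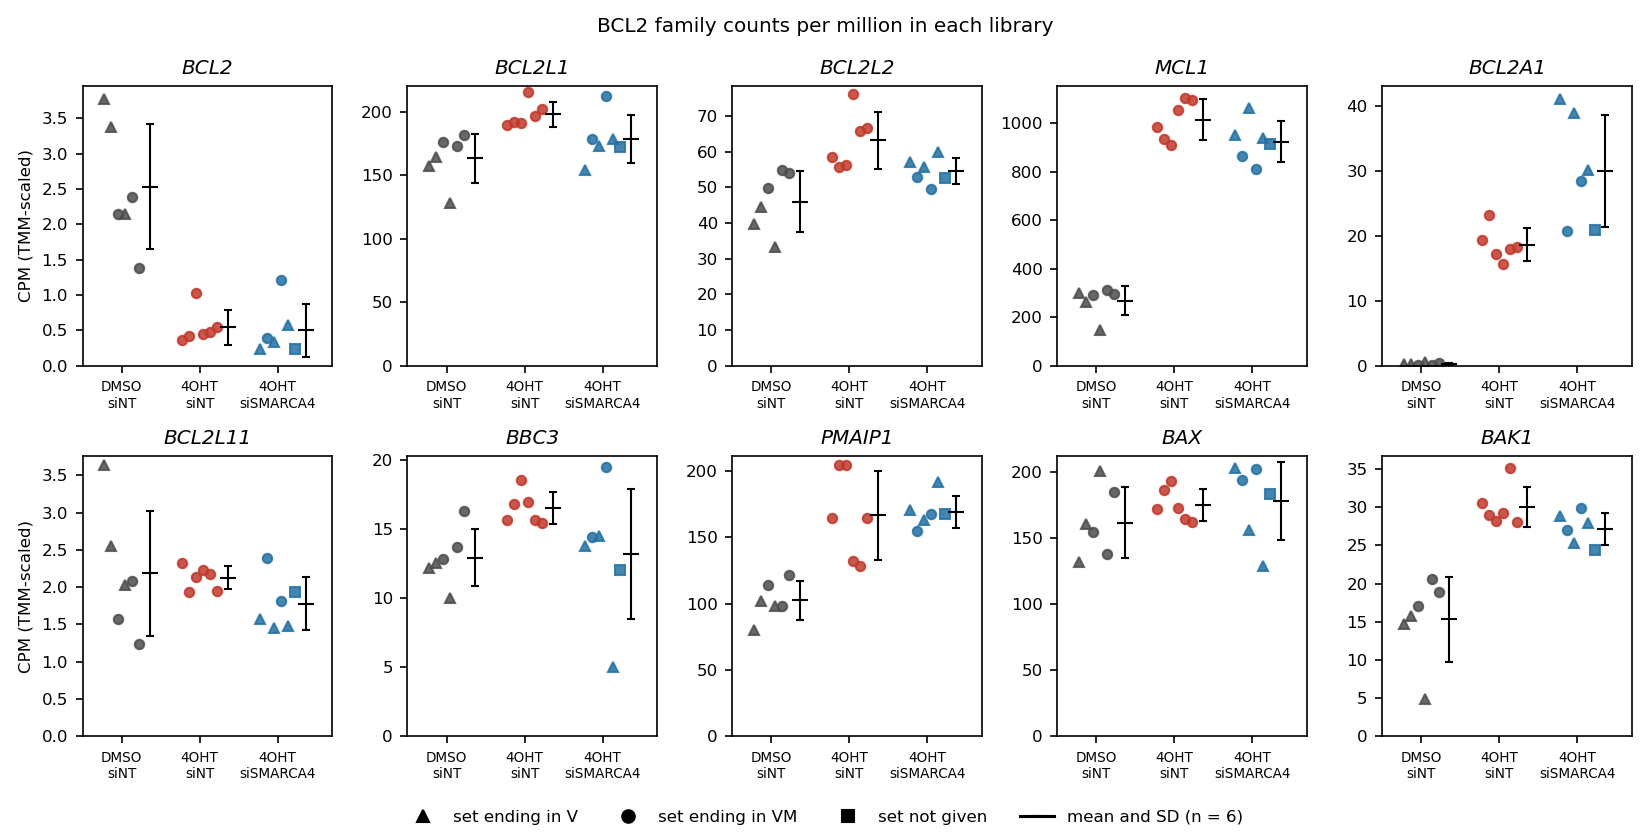
TMM-scaled CPM (vertical axes, linear, from 0) of the 10 members in each of 18 libraries, by group, with the marker shape giving the set ending and the black bar the mean and SD of 6 libraries. MCL1 sat between 148 and 313 CPM in DMSO_siNT and between 909 and 1106 CPM in 4OHT_siNT, and BCL2A1 went from below 1 CPM to at least 15.7 CPM.

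The promoters of 4 members are shown because their genes mark the extremes. BCL2A1 had the largest rise and BCL2 the only called fall. BAK1 and BAX are effectors of which only the former was called. Each promoter is the 250 bases before the RefSeq start on GRCh38.p14, written 5′ to 3′ on the strand of the gene, with motif matches in capitals. BCL2A1 lies at chr15:79971197-79971446 (minus strand), BCL2 at chr18:63319770-63320019 (minus), BAK1 at chr6:33580277-33580526 (minus) and BAX at chr19:48954625-48954874 (plus).
BCL2A1: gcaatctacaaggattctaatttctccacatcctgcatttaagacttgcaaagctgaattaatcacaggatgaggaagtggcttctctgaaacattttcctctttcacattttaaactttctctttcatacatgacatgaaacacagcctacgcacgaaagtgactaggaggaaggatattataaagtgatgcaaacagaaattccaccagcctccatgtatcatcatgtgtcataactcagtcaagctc
BCL2: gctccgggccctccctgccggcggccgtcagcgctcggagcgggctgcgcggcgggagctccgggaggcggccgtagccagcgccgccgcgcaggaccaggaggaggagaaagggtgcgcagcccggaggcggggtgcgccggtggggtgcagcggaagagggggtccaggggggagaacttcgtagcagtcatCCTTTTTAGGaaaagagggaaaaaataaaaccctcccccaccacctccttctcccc
BAK1: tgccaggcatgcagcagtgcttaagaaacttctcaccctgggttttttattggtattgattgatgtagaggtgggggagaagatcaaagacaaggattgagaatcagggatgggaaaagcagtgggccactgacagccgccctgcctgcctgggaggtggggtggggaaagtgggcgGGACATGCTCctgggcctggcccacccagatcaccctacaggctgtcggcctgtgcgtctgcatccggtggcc
BAX: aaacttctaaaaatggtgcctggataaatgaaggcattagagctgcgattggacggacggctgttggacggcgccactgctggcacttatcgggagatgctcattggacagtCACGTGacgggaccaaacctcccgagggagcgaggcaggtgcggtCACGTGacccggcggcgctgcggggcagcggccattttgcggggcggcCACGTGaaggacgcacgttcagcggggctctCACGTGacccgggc
The motifs searched on both strands were the AP-1 site TGANTCA, the cAMP response element TGACGTCA, the E-box CACGTG and, by name, the kappa-B site, the p53 half-site and the CArG box. No 2 matches overlapped. The BCL2A1 window held none of these letters. The BCL2 window held 1 CArG box, a motif present in 1.16% of 35116 promoter windows of this length. The BAK1 window held 1 p53 half-site, present in 5.57% of windows. The BAX window held 4 E-boxes, and 6.34% of windows held at least 1. GC content was 38.8% for BCL2A1, 58.0% for BAK1, 62.8% for BAX and 70.0% for BCL2. Of the 10 members, 8 matched a RefSeq promoter, and MCL1 and BCL2L2 did not. In the GENCODE annotation BCL2 starts at chr18:63320128, so its whole window, with the CArG box, lies inside the annotated gene. The BAX and BAK1 windows lie inside their annotated genes in part. A match is a run of letters, not a bound site.

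MCL1, the short-lived survival protein that holds BAK1 and BIM, was the most abundant survival member in senescent cells. Its level was 148, 294 and 313 CPM (lowest, median, highest) in DMSO_siNT, 909, 1019 and 1106 CPM in 4OHT_siNT, and 813, 927 and 1063 CPM in 4OHT_siSMARCA4. Every senescent library, with or without knockdown, lay above every growing one. The log2 fold change in senescence was 1.92 ± 0.15 (SE; adjusted p = 2.03e-09, edgeR), or 3.77-fold. The low end of the growing group was 4-2V, and without it the value was 1.80. Within the VM sets it was 1.76. Across all genes, the size of this change stood at percentile 92.0.

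BCL2A1, a survival gene best known in blood cells and as an NF-kappa-B target, was nearly silent in growing cells. A growing library held 1 to 7 counts of it, a senescent one 212 to 335 and a knockdown one 258 to 694. Pooled over libraries and without scaling, growing cells had 20 counts or 0.269 CPM, with an exact Poisson 95% interval of 0.164 to 0.416 CPM that covers counting error only, and senescent cells had 18.3 CPM (17.4 to 19.3). The level was 0.0714, 0.230 and 0.598 CPM in DMSO_siNT and 15.7, 18.1 and 23.2 CPM in 4OHT_siNT. The groups were far apart in every library. The fitted log2 fold change was 6.08 ± 0.31 (adjusted p = 8.88e-12), the largest of the 10 members and at percentile 99.6 of all genes by size. Its 95% interval ran from 5.42 to 6.73 on the log2 scale. The 4 leukocyte markers, PTPRC, CD3E, NKG7 and GNLY, remained at or near 0 in all groups.

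BCL2 itself, the founding survival gene, went the other way. It gave 18 to 53 counts per library in growing cells, 5 to 14 in senescent cells and 3 to 14 with the knockdown. Levels were 1.38, 2.27 and 3.78 CPM in DMSO_siNT, 0.364, 0.461 and 1.03 CPM in 4OHT_siNT, and 0.236, 0.367 and 1.21 CPM in 4OHT_siSMARCA4. The lowest growing library exceeded the highest senescent one. BCL2 fell by 2.20 on the log2 scale (SE 0.36, adjusted p = 3.75e-05, edgeR), and within the VM sets by 1.83. Pooled without scaling, BCL2 had 2.60 CPM (exact Poisson 95% interval 2.24 to 2.99) in growing cells and 0.534 CPM (0.390 to 0.715) in senescent cells.

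BCL2L1, which encodes BCL-xL, and BCL2L2, which encodes BCL-w, changed little. BCL2L1 measured 128, 169 and 182 CPM in DMSO_siNT and 190, 194 and 216 CPM in 4OHT_siNT, a log2 fold change of 0.28 ± 0.10 (adjusted p = 0.0212, edgeR). BCL2L2 measured 33.2, 47.2 and 54.8 CPM in DMSO_siNT and 55.7, 62.2 and 76.3 CPM in 4OHT_siNT, a log2 fold change of 0.46 ± 0.12 (adjusted p = 0.00306). Both pairs of groups met almost at the border, with gaps of a few CPM. Within the VM sets neither was called: BCL2L1 had 0.16 (adjusted p = 0.113) and BCL2L2 had 0.26 (adjusted p = 0.0579). Over 12 alternative fits in edgeR or DESeq2 the adjusted p ran from 0.00255 to 0.363 for BCL2L1 and from 0.000314 to 0.192 for BCL2L2. Without 4-2V, which was the lowest library for both, they had 0.22 and 0.39 and were still called. The counts do not separate BCL-xL from the shorter BCL-xS, or full-length MCL1 from its short form.

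Placed on a common scale by dividing CPM by the length of the MANE Select transcript, the make-up of the 5 survival members shifted. MCL1 made up 46.3% ± 4.28 (SD, n = 6) of their summed level in growing cells, 68.3% ± 1.48 in senescent cells and 65.4% ± 2.53 with the knockdown. BCL2L1 took 44.1% ± 3.57 in growing cells and 20.5% ± 0.960 in senescent cells, although its own level had not fallen. BCL2A1 went from 0.285% ± 0.275 to 6.40% ± 1.11, and to 10.7% ± 2.46 with the knockdown. BCL2L2 took 7.53% to 9.62% and then 4.43% to 5.51%, and BCL2 was below 0.5% in every library. With all annotated exons as the length, MCL1 took 46.4% and 67.3%. The shares are descriptive, and no test was run on them.

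**Figure D2:**
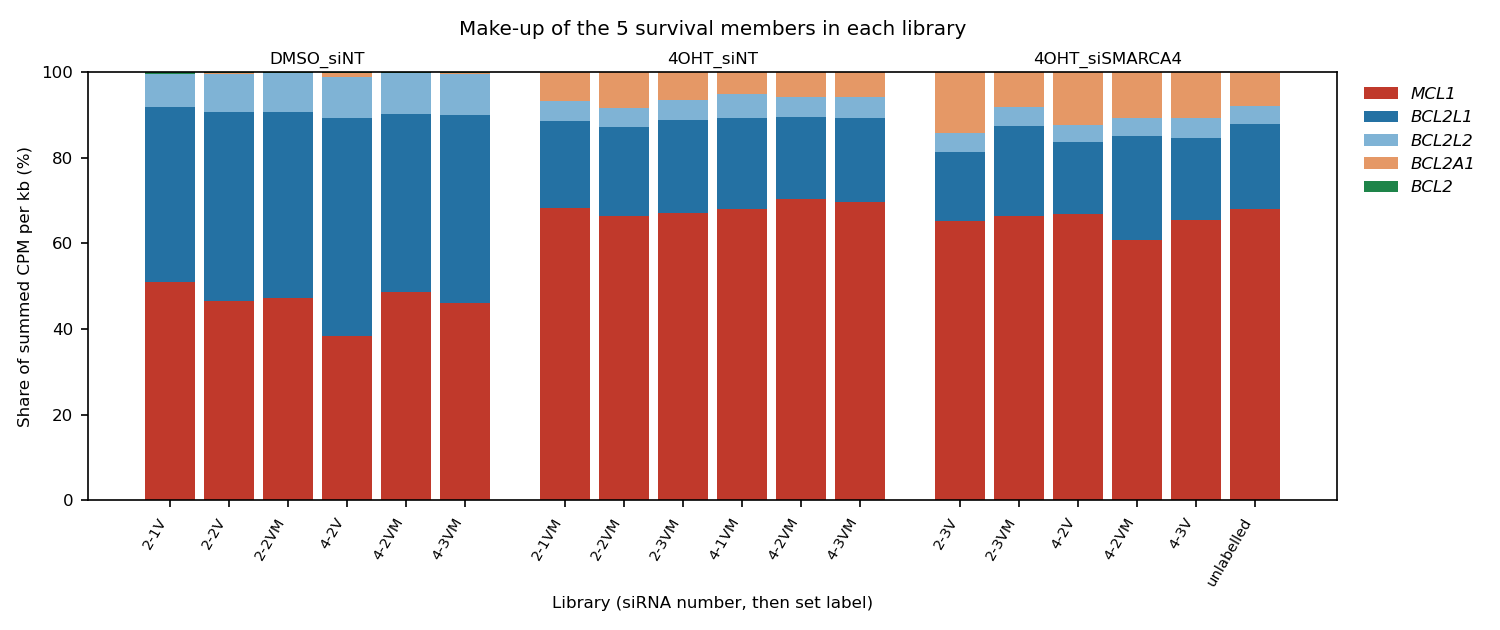
Share of the summed CPM per kilobase of the 5 survival members (vertical axis, percent) in each library, one stacked bar per library, grouped by condition. MCL1 and BCL2L1 were near parity in DMSO_siNT, at means of 46.3% and 44.1%, and MCL1 led at 68.3% against 20.5% in 4OHT_siNT.

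Ratios of counts within a library need no scaling and gave the same picture. MCL1 counts were 1.16 to 1.91 times those of BCL2L1 in growing cells, 4.76 to 5.61 times in senescent cells and 3.83 to 6.17 times with the knockdown. Against PMAIP1, whose product opposes MCL1, the ratio was 1.51 to 3.74 in growing cells, 4.44 to 8.61 in senescent cells and 4.85 to 6.52 with the knockdown. Neither ratio overlapped between growing and senescent libraries.

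PMAIP1, a BH3-only gene known as a target of p53 and of the integrated stress response, rose in senescence. It measured 80.3, 100.2 and 122 CPM in DMSO_siNT, 128, 165 and 205 CPM in 4OHT_siNT, and 155, 168 and 192 CPM in 4OHT_siSMARCA4. The groups of growing and senescent cells did not overlap. The log2 fold change was 0.70 ± 0.13 (adjusted p = 0.000119, edgeR). Senescent libraries split by siRNA number: siRNA 2 gave 0.43 ± 0.15 above siRNA 4 on the log2 scale, with an adjusted p of 0.302 (unadjusted 0.0128). Using siRNA 4 alone, the senescence difference was 0.44 and was no longer called (adjusted p = 0.0730).

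BBC3, a direct p53 target that encodes PUMA, measured 10.04, 12.7 and 16.3 CPM in DMSO_siNT and 15.5, 16.3 and 18.5 CPM in 4OHT_siNT. The groups overlapped in part, and the log2 difference of 0.35 ± 0.20 was not called (adjusted p = 0.153, edgeR; 95% interval -0.07 to 0.77). With only the growing and senescent libraries in the fit, its difference was 0.36 and was called (adjusted p = 0.0207), as it was with siRNA 2 alone (0.45, adjusted p = 0.00521). BCL2L11, which encodes BIM, the activator held by every survival member, was lowly expressed, with 17 to 51 counts in DMSO_siNT and 25 to 32 in 4OHT_siNT. Its levels were 1.24, 2.06 and 3.63 CPM in growing cells and 1.94, 2.16 and 2.33 CPM in senescent cells, so the senescent libraries lay within the growing range. The difference was -0.04 ± 0.22 (adjusted p = 0.892; interval -0.50 to 0.42). BCL2L11 shares its locus with the antisense RNA gene MIR4435-2HG, which reached 3896 counts in a library, and whether counting used the strand was not stated, so its level is uncertain.

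Of the effectors, BAK1 rose and BAX did not pass the test. BAK1, which sits in the outer mitochondrial membrane and is held there by MCL1 and BCL-xL, measured 4.90, 16.4 and 20.6 CPM in DMSO_siNT, 28.0, 29.1 and 35.1 CPM in 4OHT_siNT, and 24.4, 27.4 and 29.9 CPM in 4OHT_siSMARCA4. No senescent library reached down to a growing one. The log2 fold change was 0.96 ± 0.20 (adjusted p = 0.000562, edgeR), and it was 0.79 without 4-2V, the library at 4.90 CPM, and 0.68 within the VM sets. BAX, which is mostly cytosolic until activated, measured 132, 158 and 201 CPM in DMSO_siNT and 162, 173 and 194 CPM in 4OHT_siNT. The growing libraries enclosed the senescent ones. The difference was 0.11 ± 0.12 (adjusted p = 0.452), with an interval of -0.14 to 0.37 that leaves out a rise as large as the fitted value of BAK1.

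**Figure D3:**
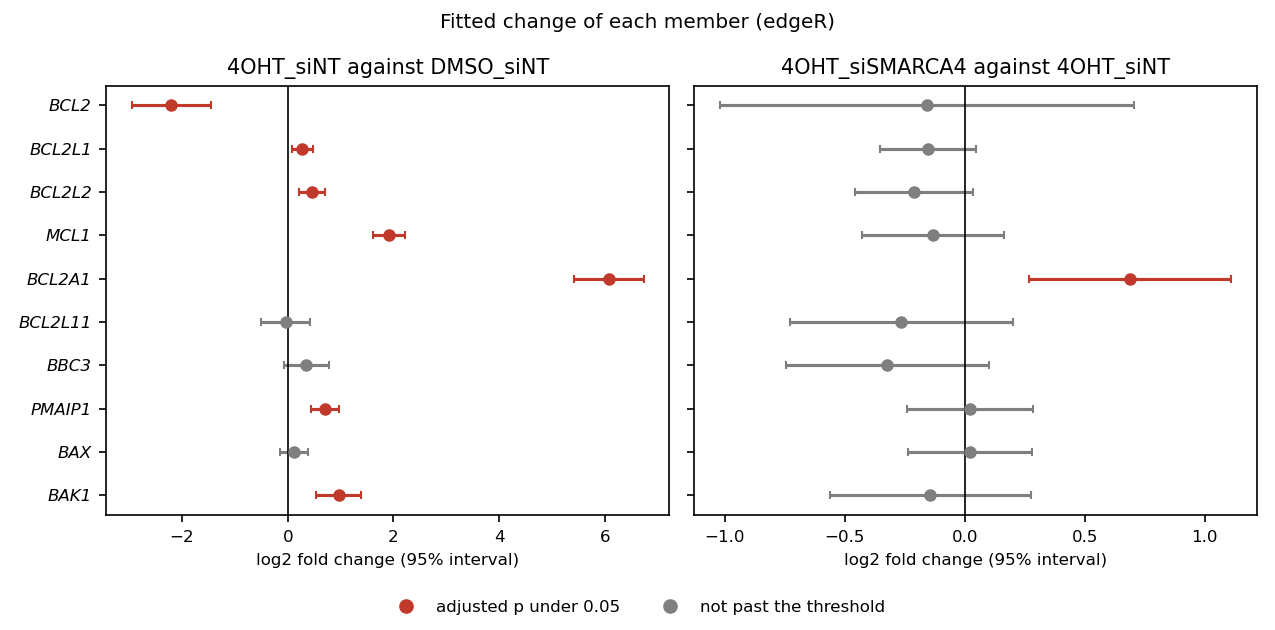
Fitted log2 fold change of each member (points) with its 95% interval (bars) from edgeR, for senescent against growing cells on the left and for knockdown against senescent control on the right, on axes of different range. Red marks an adjusted p under 0.05: 7 members on the left, and BCL2A1 alone on the right.

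In order of CPM per kilobase of MANE Select transcript, growing cells had BAX first (204 ± 33.8, SD, n = 6), followed by MCL1 (68.1 ± 15.5), BCL2L1 (63.5 ± 7.52) and PMAIP1 (54 ± 7.59), which lay within each other's spread. BCL2L2 came next (13.1 ± 2.43), then BAK1 (7.05 ± 2.54) and BBC3 (7.01 ± 1.11), which could not be ordered. BCL2L11, BCL2 and BCL2A1 were last, at 0.429, 0.369 and 0.366, and overlapped as well. In senescent cells MCL1 was first (257 ± 21.3) and BAX second (221 ± 15.5), ahead of PMAIP1 (87.7 ± 17.5) and BCL2L1 (76.9 ± 3.90), which lay within each other's spread. BCL2A1 (23.9 ± 3.26) had moved above BCL2L2 (17.9 ± 2.26), BAK1 (13.8 ± 1.23) and BBC3 (8.95 ± 0.639), with BCL2L11 (0.418) and BCL2 (0.0795) at the end. The place of BAX depends on the length used: with all annotated exons it was 62.6 in growing cells and 67.8 in senescent cells, against 163 for MCL1 in the latter.

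Knockdown of SMARCA4 in senescent cells left the levels of most members where they were, within the resolution of the data. In 4OHT_siSMARCA4 against 4OHT_siNT, 1 of the 10 members was called, BCL2A1, which was higher, beside 10.6% of all genes tested. All 10 members overlapped between these groups, so 0 were free of overlap, against 11.4% of all genes. The median log2 fold change was -0.15 over the members and 0.01 over all genes. SMARCA4 itself fell by 1.61 on the log2 scale (SE 0.14).

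BCL2A1 measured 15.7, 18.1 and 23.2 CPM in 4OHT_siNT and 20.8, 29.4 and 41.0 CPM in 4OHT_siSMARCA4, a log2 fold change of 0.69 ± 0.20 (adjusted p = 0.0329, edgeR; 95% interval 0.27 to 1.11). The groups overlapped, since a senescent control library at 23.2 CPM exceeded 2 of the knockdown libraries. The 3 knockdown libraries of V sets measured 30.2 to 41.0 CPM, the 2 of VM sets 20.8 and 28.5 CPM and the library of a set not given 20.8 CPM, while every control library came from a VM set. Within the VM sets the difference was 0.39 and not called (adjusted p = 0.167, with 0.00573 to 0.760 over 11 alternative fits in edgeR or DESeq2). The knockdown libraries of V and VM sets differed by 0.57 ± 0.28 (edgeR adjusted p = 0.650, unadjusted 0.0602). Knockdown and set ending thus cannot be fully told apart for this gene. SMARCA4 measured 125, 141 and 92.7 CPM in the knockdown libraries 2-3V, 4-2V and 4-3V. It measured 87.0 CPM in 2-3VM, 70.4 CPM in 4-2VM and 78.8 CPM in the library of a set not given. The knockdown libraries with more BCL2A1 thus also kept more SMARCA4, and this relation was not tested. BCL2A1 was not called with siRNA 2 alone either (0.46, adjusted p = 0.167, edgeR). The call was also lost in 9 of 13 fits that left out 1 library, with values of 0.58 to 0.77. It was kept when that library was 4OHT_siNT 2-2VM, 4OHT_siSMARCA4 2-3VM, the one of a set not given, or DMSO_siNT 4-2V (0.68, adjusted p = 0.00586, edgeR).

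The other members gave these differences with the knockdown, none of them called in the fit of all 18 libraries. MCL1 had -0.13 ± 0.14 (95% interval -0.43 to 0.16), which leaves out a full loss of its senescence rise but not a partial one. BCL2L1 had -0.15 (-0.35 to 0.05), BCL2L2 had -0.21 (-0.46 to 0.04) and BCL2 had -0.16 (-1.02 to 0.71), the widest interval of the 10. Without 4OHT_siSMARCA4 4-2VM, its highest knockdown library, BCL2 had -0.61. PMAIP1 and BAX both had 0.02, with intervals of -0.24 to 0.29 and -0.24 to 0.28, and BAK1 had -0.14 (-0.56 to 0.28). BCL2L11 had -0.26 (-0.73 to 0.20) and BBC3 had -0.32 (-0.74 to 0.10). The lowest knockdown library for BBC3 was 4OHT_siSMARCA4 4-3V at 5.03 CPM, whereas the other 5 measured 12.0 to 19.5 CPM. Without that library BBC3 had -0.16. With siRNA 2 alone, which leaves that library out as well, BBC3 had -0.35 and was the 1 member called (adjusted p = 0.0437, edgeR). In a fit of the VM sets plus the library of a set not given, chosen after seeing the data, MCL1 (-0.25, adjusted p = 0.0462, edgeR) and BCL2L2 (-0.31, adjusted p = 0.0379) were called lower.

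Compared with growing cells, knockdown cells kept the main part of the senescence pattern. In 4OHT_siSMARCA4 against DMSO_siNT, 5 of the 10 members were called, beside 50.5% of all genes, and the same 5 did not overlap, against 29.6% of all genes. MCL1 (1.78 ± 0.15), BCL2A1 (6.77 ± 0.31), PMAIP1 (0.72 ± 0.13) and BAK1 (0.82 ± 0.20) were higher and BCL2 (-2.36 ± 0.37) was lower on the log2 scale. Over 12 alternative fits in edgeR or DESeq2, BCL2 ran from -3.36 to -1.31 and kept its call. BCL2L1 (0.12, 95% interval -0.08 to 0.33) and BCL2L2 (0.25, interval -0.00 to 0.49) were not called. BCL2L2 was called without DMSO_siNT 4-3VM (0.30, adjusted p = 0.0473, edgeR), and BCL2L1 had 0.06 without DMSO_siNT 4-2V. With siRNA 2 alone BCL2L2 (0.28, adjusted p = 0.0206) and BAX (0.38, adjusted p = 0.00246) were called as well. BCL2L1, BCL2L2, BAX, BBC3 and BCL2L11 overlapped between these groups. The comparison shares its growing libraries with that of senescent against growing cells, so the 2 are not independent.

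Neither the siRNA number nor the set ending gave a called difference in a member. Between siRNA 2 and siRNA 4, 0 of the 10 members were called by edgeR in DMSO_siNT (0.0512% of all genes), 4OHT_siNT (0.0732%) or 4OHT_siSMARCA4 (0.00732%), and DESeq2 called 0 of them as well. Over all genes DESeq2 called far more than edgeR, with 13.5%, 1.62% and 0.319% in the same order. At an unadjusted p under 0.05 in edgeR the count of members was 0, 1 (PMAIP1) and 0, beside 28.3%, 10.6% and 6.43% of all genes. Between V and VM sets, 0 members were called in DMSO_siNT (0.324% of all genes) or 4OHT_siSMARCA4 (0.101%) by edgeR, nor by DESeq2, which called 2.99% and 1.04% of all genes. At an unadjusted p under 0.05, 3 members differed in DMSO_siNT, namely BCL2L2 (-0.45, V minus VM), BAK1 (-0.67) and BCL2L11 (0.75), beside 16% of all genes. In 4OHT_siSMARCA4 it was 0 members, beside 8.15%. The change from DMSO_siNT to 4OHT_siSMARCA4 was also compared between V and VM sets, and edgeR called no member (0.0864% of all genes). At an unadjusted p under 0.05 it differed for BCL2L11 (-1.24, V minus VM), BCL2L2 (0.61) and BCL2 (-1.72), beside 1338 of 13887 genes. Between siNT numbers, the change from DMSO_siNT to 4OHT_siNT differed at that level for PMAIP1 (0.54, 2 minus 4), beside 3258 of 13659 genes, and was not called.

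Around the 10 members, the 3 lists of the wider apoptosis machinery with the most tested genes held shares of called genes near that of all genes. They were 60% of the tested further BCL2 family genes, 41.7% of the apoptosome and caspase genes and 50% of the death receptor and adaptor genes in senescence, against 52.8% of all genes. Of 15 further BCL2 family genes, 10 could be tested, and in senescence 4 rose and 2 fell, with a median log2 fold change of 0.07. BMF, a BH3-only gene linked to cytoskeletal stress, rose most, from 2.03, 5.35 and 8.85 CPM to 17.9, 19.2 and 22.3 CPM (log2 fold change 1.95 ± 0.24). BNIP1 had the largest fall (-0.61 ± 0.23, adjusted p = 0.0301, edgeR). It was -0.25 and not called without 4-2V, and not called without 4OHT_siNT 4-2VM (-0.55) or 4-3VM (-0.56). Over 12 alternative fits in edgeR or DESeq2, BNIP1 lost its call in 7, with values of -1.01 to -0.12. Among 12 tested apoptosome and caspase genes, 4 rose and 1 fell. HTRA2, a mitochondrial protease that counters caspase inhibitors, rose by 0.86 ± 0.11, and CASP6, an executioner caspase, fell by 1.80 ± 0.25. Of 4 caspase inhibitors, BIRC3, which encodes cIAP2, rose (1.55 ± 0.20) and 3 were not called.

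Death receptors start the extrinsic route through adaptor proteins. Of 10 receptor and adaptor genes, 5 were higher and 0 lower in senescence, beside 23.9% of all genes higher and 28.9% lower, with a median of 0.58. All 5 were receptors. The largest rise was in TNFRSF10D, a decoy receptor for TRAIL, from 105, 283 and 374 CPM to 733, 869 and 1041 CPM (1.70 ± 0.23). By edgeR, 0 of 3 voltage-dependent anion channel genes and 0 of 4 tested MCL1 turnover genes were called, with 1 and 0 at an unadjusted p under 0.05, and DESeq2 called 1 and 0. The MCL1 turnover genes ran from -0.31 (FBXW7) to 0.54 ± 0.28 (HUWE1), with a median of -0.06. Whether the turnover of MCL1 changed was not tested. Of 7 tested regulators of BH3-only genes, MYC had the largest rise (0.70 ± 0.14) and E2F1 the largest fall (-1.15 ± 0.14), with 2 higher and 2 lower.

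With the knockdown, 2 of the 10 further BCL2 family genes rose and 1 fell, beside 10.6% of all genes called in this comparison. BMF gave back part of its rise, at 7.35, 8.70 and 12.3 CPM, below every senescent control (-1.09 ± 0.23, adjusted p = 0.00512, edgeR). BNIP3L, a mitophagy receptor also called NIX, rose by 0.60 ± 0.13. Of the 4 caspase inhibitors 2 rose, BIRC3 most, from 15.4, 19.5 and 23.9 CPM to 62.2, 69.9 and 76.8 CPM (1.86 ± 0.19), and it held within the VM sets at 1.83. Of the 12 caspase and apoptosome genes, 0 were called by edgeR, 1 by DESeq2, and 5 had an unadjusted p under 0.05 in edgeR. Of the 10 death receptor and adaptor genes 3 fell, all of them receptors, TNFRSF10C most (-1.30 ± 0.28). With 3 to 12 tested genes in each of these lists, their counts are descriptions beside the 10.6%. Of the regulators, ATF4, the transcription factor of the integrated stress response, was called (0.35 ± 0.09). PMAIP1, one of its known targets, had 0.02, and a link between them was not tested. By edgeR, 0 of 3 channel genes and 0 of 4 MCL1 turnover genes were called, with 0 and 0 at an unadjusted p under 0.05 and 0 and 0 by DESeq2. BMF, BNIP3L, TNFRSF10C and ATF4 were also called within the VM sets, and ATF4 lost its call without 4OHT_siSMARCA4 2-3VM (0.31) or the library of a set not given (0.31). Over 12 alternative fits in edgeR or DESeq2, each of these 4 genes lost its call in 2, and BIRC3 in 1. The highest adjusted p was 0.254 for BMF, 0.272 for BNIP3L, 0.460 for TNFRSF10C, 0.801 for ATF4 and 0.121 for BIRC3.

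**Figure D4:**
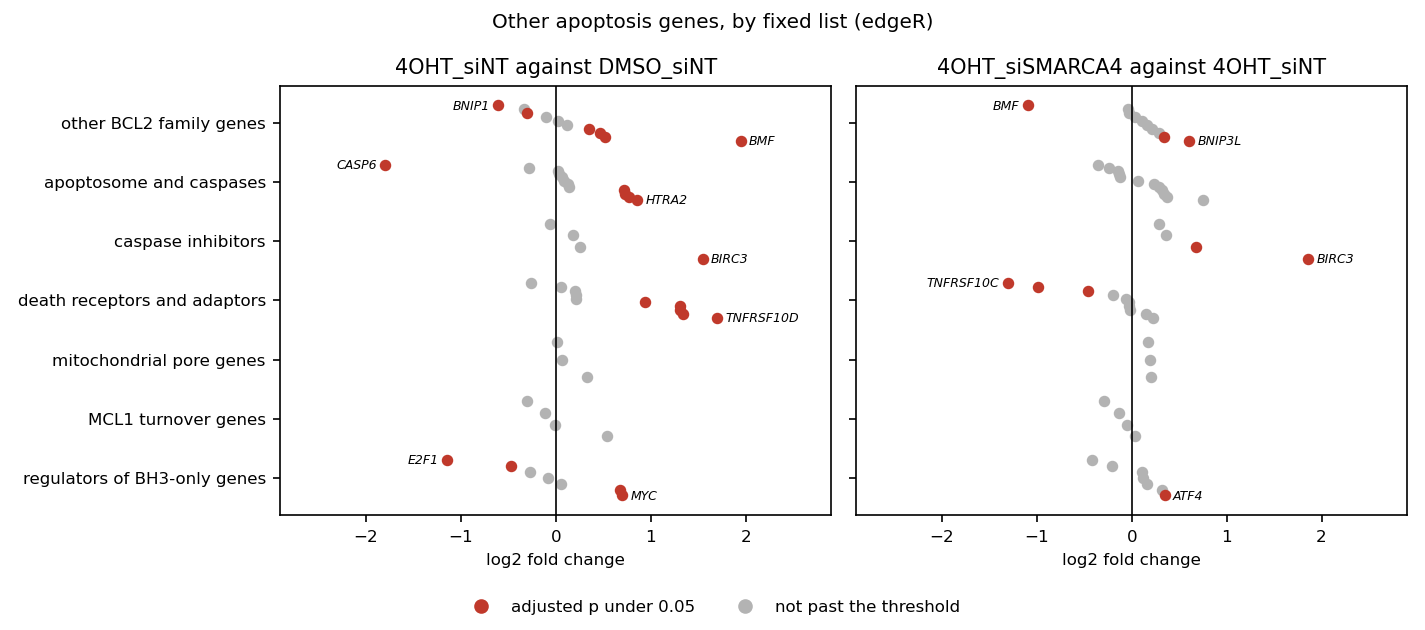
Fitted log2 fold change (horizontal axis) of every tested gene of 7 apoptosis lists, one row per list and one point per gene, in senescence on the left and with the knockdown on the right. Red points passed an adjusted p of 0.05, and the called gene with the largest rise and fall in each list is named, such as BMF at 1.95 on the left and -1.09 on the right.

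Marker genes moved between the groups as well. In senescence 5 of 8 fibroblast markers fell, and with the knockdown 6 of 8 fell. Their summed levels were 11448 to 31306 CPM in DMSO_siNT, 14920 to 19815 CPM in senescent controls and 8627 to 12575 CPM after knockdown. DCN fell most in senescence (log2 fold change -5.17), from a mean of 625 CPM to 17.4 CPM, and LUM had -1.99. COL1A2 fell most with the knockdown (-1.46). VIM was called in neither comparison (0.10 and -0.03). The 4 epithelial markers summed to 38.1 to 60.2 CPM in growing cells, with means of 42.1 CPM for KRT19 and 7.09 CPM for CLDN4, which both fell in senescence, against 3.64 to 5.05 CPM in senescent cells and 1.12 to 4.10 CPM with the knockdown, with CDH1 at no more than 0.239 CPM throughout. The 4 endothelial markers summed to 1.35 to 2.39, 4.29 to 5.53 and 1.30 to 5.78 CPM. The part of these shifts in the members' results was not tested.

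After the group means were removed, some members varied together across the 18 libraries, which share depth and preparation. BBC3 and BAX had a Pearson correlation of 0.57, and 0.77 without 4-2V, and both were at their lowest of all libraries in 4OHT_siSMARCA4 4-3V, at 5.03 and 129 CPM. BCL2L11 and PMAIP1 ran opposite (-0.61 with and without 4-2V). MCL1 and BAK1 had 0.87 with 4-2V and 0.14 without it, so that value rested on 1 library. By the same measure the genes most like MCL1 were P4HB (0.96, and 0.83 without 4-2V), MEN1 (0.96 and 0.77) and SIDT2 (0.96 and 0.79). For BCL2A1 they were CST1 (0.85 and 0.79), NIP7 (0.84 and 0.77) and RNASET2 (0.83 and 0.78). For PMAIP1 they were UFM1 (0.94 and 0.94), TMED7 (0.90 and 0.92) and RAB11A (0.90 and 0.90), and for BAX UBE2S (0.95 and 0.94), POLR2F (0.94 and 0.93) and SSNA1 (0.94 and 0.93). The first gene for the others was ADGRG1 for BCL2 (0.83), SUMO3 for BCL2L1 (0.89), APCDD1L for BCL2L2 (0.91), LHFPL2 for BCL2L11 (0.89), CCDC124 for BBC3 (0.91) and IDH3G for BAK1 (0.98, and 0.77 without 4-2V). These are descriptions over 18 libraries, chosen as the highest of all genes, and carry no test.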

How the data were processed

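RNA of 18 libraries was prepared, per the labels, with a strand-specific polyA kit, and the submitters' processing notes name STAR 2.7.8a, hg38 and DESeq2 1.36.0. The counting program, its annotation and its use of strand are not given in the sources used here. The authors deposited raw counts per gene for each library and sequencing lane, without normalization, and the 2 lanes of a library were summed. Of 29 labelled samples, 17 matched a column and 12 were not analysed here. A further column named its group but no labelled set and was used as a replicate without a set.

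Low-count genes were dropped by filterByExpr (minimum count 10; edgeR 4.0.16, R 4.3.3), and 99.9% of all counts remained. Libraries were TMM-scaled, all 18 entered 1 quasi-likelihood fit without covariates, and p-values were Benjamini-Hochberg adjusted over all 13136 genes. The threshold for a call was an adjusted p under 0.05. SEs were derived from the F statistic and 95% intervals from its degrees of freedom. The biological coefficient of variation was 23.3%. DESeq2 1.42.0 was an alternative, and the fit was tested on simulated data. Log2 CPM used a prior count of 2. Coordinates and lengths came from GENCODE, promoters from RefSeq. Nothing says that libraries of a group came from separate cultures, so p-values measure the spread between libraries, which may be technical. The smallest ratio of chi-square to degrees of freedom between 2 libraries of a group was 2.33, so none was counted as a duplicate.

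All 10 members were named, SMARCA4, in each list the called genes with the largest rise and fall, and the 3 genes most correlated with a member among those of mean log2 CPM above 1. Members and lists were chosen with earlier results of these data known.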

Additional observations from a re-analysis of the deposited data

Results flagged for a closer look

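Among the 10 members, 4 of the 30 sets of 6 libraries had a library farther from the rest than Dixon's critical value of 0.625 allows, measured as the gap to the nearest library over the whole range of log2 CPM. Chance alone would give about 1.5 such sets. In growing cells, DMSO_siNT 4-2V was the lowest library for MCL1 (gap 0.773, at 148 CPM) and for BAK1 (gap 0.762, at 4.90 CPM). In 4OHT_siNT, library 2-3VM was the highest for BCL2 (gap 0.636, at 1.03 CPM, 14 counts). In 4OHT_siSMARCA4, library 4-3V was the lowest for BBC3 (gap 0.641, at 5.03 CPM).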

How the results depend on the processing

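In senescent against growing cells, 7 members were called as reported and 7 to 8 when any 1 library was left out (8 without 4OHT_siSMARCA4 4-3V). The count was 8 with only the 2 groups compared, 9 with siRNA 2 alone, 3 with siRNA 4 alone and 3 with a fold above 2 required. Over all genes, the calls were 6935 of 13136 as reported and 6193 of 12934 with only the 2 groups compared. They were 7637 of 13340 with siRNA 2 alone, 4705 of 13213 with siRNA 4 alone and 2822 of 13136 with a fold above 2. MCL1, BCL2A1 and BCL2 kept direction and call in every fit that tested them (MCL1 1.73 to 2.14, BCL2A1 5.54 to 6.77, BCL2 -2.46 to -1.77). BCL2L1 lost its call in 6 of 12 alternatives (0.16 to 0.38) and BCL2L2 in 3 (0.26 to 0.58). BAK1 (1.08) and PMAIP1 (0.44) lost theirs with siRNA 4 alone. BAX (0.31) and BBC3 (0.45) were called with siRNA 2 alone.

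For the knockdown against senescent control, 1 member was called as reported. The count was 0 with at least 10 counts in every library (which leaves out BCL2 and BCL2A1), with the replicate block, within the VM sets, with siRNA 4 alone, with siRNAs of a set summed, at an adjusted p under 0.01 and with a fold above 2. Over all genes these fits called, in the same order, 1066 of 11188, 236 of 13323, 2858 of 13615 and 4 of 13213. The last ones called 1416 of 13931, 595 of 13136 and 461 of 13136. The count of members was 1 with siRNA 2 alone (3429 of 13340 genes), where BBC3 was called lower (-0.35) and BCL2A1 was not called (0.46). It was 2 in the VM sets with the library of a set not given (4064 of 13384 genes), both lower. It was 0 to 1 when 1 library was left out. With siRNA 4 alone 4 genes in all were called, and SMARCA4 was not (adjusted p = 0.0925, edgeR). In the libraries of siRNA 4, SMARCA4 measured 70.4 to 141 CPM with the knockdown and 297 to 330 CPM in senescent controls, without overlap. The fit with siRNA 4 alone also held DMSO_siNT 4-2V. Against growing cells, 5 members were called as reported, 7 with siRNA 2 alone, 4 with siRNA 4 alone, 4 within the V sets, 3 with at least 10 counts in every library and 3 with a fold above 2. Over all genes these fits called, in the same order, 6635 of 13136, 8160 of 13340, 4119 of 13213 and 2732 of 12937. The last ones called 5519 of 11188 and 2820 of 13136. No called value changed sign.

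The set labels gave no clear sign of pairing: across 15 pairs of equal label the correlation of deviations ran from -0.35 to 0.41 (median 0.04). Whether libraries of a set share a weak effect cannot be decided from so few and scattered values. With the replicate block the knockdown difference of BCL2A1 was 0.34 (adjusted p = 0.760, edgeR), the whole table gave 236 calls against 1397, and BCL2L1 (0.17) and BCL2L2 (0.29) were not called in senescence. Depth limits BCL2, BCL2L11 and growing-cell BCL2A1, with at most 53 counts a library. Except where a setting tests fewer genes or libraries, the cause of a lost call was not tested.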
